A study of Komagataella phaffii with 72 samples.

Results

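CTR1, FRE1, and ZPS1 carry the names of *Saccharomyces cerevisiae* genes of metal uptake or of the response to metals. Their levels were described in *Komagataella phaffii* (*Pichia pastoris*), a methylotrophic yeast used to secrete recombinant proteins. They were 3 of the 5120 genes in the tables, chosen by their loadings in other cultures and found by the identifiers GQ67_04497 (CTR1), GQ67_04112 (FRE1), and GQ67_03591 (ZPS1), which the study's supplement pairs with these names. The supplement lists them among 20 genes with strong loadings on the principal component that set GS115 apart from the other strains before any transgene was introduced, on glycerol. Those cultures were not analysed here, so the loadings used no library described below. The 3 genes were, however, picked from that list with earlier results of these data known. The identifiers matched 0 of the 5040 entries in the gene table of the species used here, and the names rest on that pairing alone.

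In *Saccharomyces cerevisiae*, Ctr1 is the high-affinity copper transporter of the plasma membrane. Fre1 is a cell-surface reductase of iron and copper, which are taken up in their reduced forms. CTR1 and FRE1 are both activated there by Mac1, a transcription factor that responds to copper starvation. Zps1 is a cell-surface protein whose gene is induced by the zinc-responsive factor Zap1 when zinc is scarce.

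RNA was measured by 3′ digital gene expression (3′ DGE), which sequences the 3′ end of transcripts, in 72 cultures of 8 groups. The groups were the strains GS115, Y-11430 (NRRL Y-11430), Y-48124 (NRRL Y-48124), and X-33, each expressing rhG-CSF (human granulocyte colony-stimulating factor, written rG-CSF in the labels) or rhGH (human growth hormone). Each group held 3 clones, each a separate transformant, and each clone had 3 cultures, A, B, and C. By the study's account, the clones of a strain were picked to span low and high transgene copy number, so the spread between clones includes that difference. Every clone carried its transgene under the methanol-inducible AOX1 promoter in the vector pPICZ A, grew for 24 hr with 4% glycerol and then 24 hr with 1.5% methanol, and was sampled at the end. GS115 is a histidine auxotroph derived from Y-11430. Y-48124 and X-33 belong to the GS115 family and carry a substitution in HIS4, a gene of histidine synthesis, at the position that is mutated in GS115. No strain without a transgene was among these libraries. Levels are given as the deposited log2(TPM + 1), where TPM is a transcript level scaled by transcript length and by the library total, and a group's value is the mean of its 3 clones.

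Total counts per library ranged from 386665 to 33003281, and 71 of the 72 libraries had at most 5996828. The deepest was GS115 rhG-CSF 14A. The library labelled X-33 rhGH 12A stood apart. Among 15 genes that separated all Y-11430 from all X-33 cultures in rhG-CSF strains by over 1 log2 unit, it lay nearer to the Y-11430 rhGH mean at 14, against 0 to 4 in the other 8 X-33 rhGH libraries and 11 to 14 in Y-11430 rhGH libraries. It was kept under its label, and leaving it out moved the log2 fold changes of the 3 genes by at most 0.043 and changed 1 of their 45 calls, that of ZPS1 when Y-11430 was set against Y-48124 and X-33. Y-11430 rhGH 22A, 8A, and 8C also stood apart from the other 6 libraries of their group, with 100 genes above and 64 below all 6 by over 1 log2 unit, of 5043. Other choices of libraries within the group were not compared. Results that rest on 22A, 8A, and 8C are also given without them where the fit or test was repeated.

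The 3 genes were expressed at very different levels. CTR1 had a median of 1937 TPM over the 72 cultures, rank 72 of 5120 genes. FRE1 had a median of 124 TPM, rank 987, and ZPS1 of 20.02 TPM, rank 3235. ZPS1 therefore rested on few reads, 6 to 205 counts per culture with a median of 28, and counting error alone would give a standard deviation (SD) of about 0.32 log2 units between its cultures. TPM divides by transcript length although 3′ DGE reads come from one end, and the ratio of TPM to CPM, the counts scaled to the library total alone, was 1.54 for CTR1, 0.286 for FRE1, and 1.16 for ZPS1. By CPM the medians were 1232 for CTR1 (rank 124), 425 for FRE1 (rank 336), and 17.2 for ZPS1 (rank 4072). CTR1 and FRE1 lay closer together on that scale than in TPM.

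CTR1 was high in every group and differed little between strains. Among cultures of GS115 rhG-CSF, CTR1 was lowest at 9.84, with a median of 10.89 and a highest value of 11.41. In GS115 rhGH, CTR1 ran from 10.54 through a median of 10.96 to 11.60. The wide span in GS115 rhG-CSF came from clone 14, whose cultures lay at 10.003, 9.84, and 10.58, below all 6 cultures of clones 12 and 13. In Y-11430, CTR1 lay between 10.91 and 11.70 with rhG-CSF (median 11.06) and between 10.92 and 11.60 with rhGH (median 11.21). In Y-48124, it lay between 10.04 and 10.71 with rhG-CSF (median 10.59) and between 10.62 and 11.53 with rhGH (median 11.06). In X-33, it lay between 10.06 and 10.80 with rhG-CSF (median 10.46) and between 10.29 and 11.72 with rhGH (median 11.32). Y-11430 held the 2 highest group means, and Y-48124 and X-33 with rhG-CSF the 2 lowest.

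FRE1 had its lowest cultures in GS115. In GS115 rhG-CSF, FRE1 ranged from 5.51 to 7.21 with a median of 6.24, and in GS115 rhGH from 6.22 to 7.59 with a median of 7.08. Within GS115 clones, single cultures were far apart: rhGH clone 12 had 7.59, 6.43, and 6.33. In Y-11430, FRE1 ranged from 6.97 to 7.66 with rhG-CSF (median 7.22) and from 6.81 to 7.74 with rhGH (median 7.36). In Y-48124, it ranged from 6.21 to 6.96 with rhG-CSF (median 6.77) and from 6.81 to 7.36 with rhGH (median 7.01). In X-33, it ranged from 6.24 to 7.03 with rhG-CSF (median 6.80) and from 6.62 to 7.65 with rhGH (median 7.16), where the highest value was that of the library labelled 12A. By group mean, FRE1 was thus lowest in GS115 rhG-CSF, at 6.30 ± 0.50, and highest in Y-11430 rhGH, at 7.33 ± 0.10 (mean ± SD, n = 3 clones each). That first place rested on 22A, 8A, and 8C, at 7.73, 7.74, and 7.71. The other cultures of these clones lay at 7.36 and 6.81 (clone 22) and 6.89 (clone 8), and Y-11430 rhG-CSF averaged 7.27.

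ZPS1 was the gene whose groups stood farthest apart. In GS115 rhG-CSF, ZPS1 ranged from 2.35 to 4.06 with a median of 3.34, and in GS115 rhGH from 3.69 to 4.82 with a median of 3.93. In Y-11430 rhG-CSF, its cultures lay at 5.08 to 7.07 with a median of 6.52, all above the 9 cultures of Y-11430 rhGH, which lay at 3.39 to 4.80 with a median of 4.35. In Y-48124, ZPS1 lay at 3.98 to 4.85 with rhG-CSF (median 4.50) and at 3.42 to 4.55 with rhGH (median 3.93). In X-33, it lay at 4.23 to 6.01 with rhG-CSF (median 5.15) and at 3.77 to 5.14 with rhGH (median 4.67). All 9 cultures of GS115 rhG-CSF were below all 9 of Y-11430 rhG-CSF and of X-33 rhG-CSF.

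**Figure D1:**
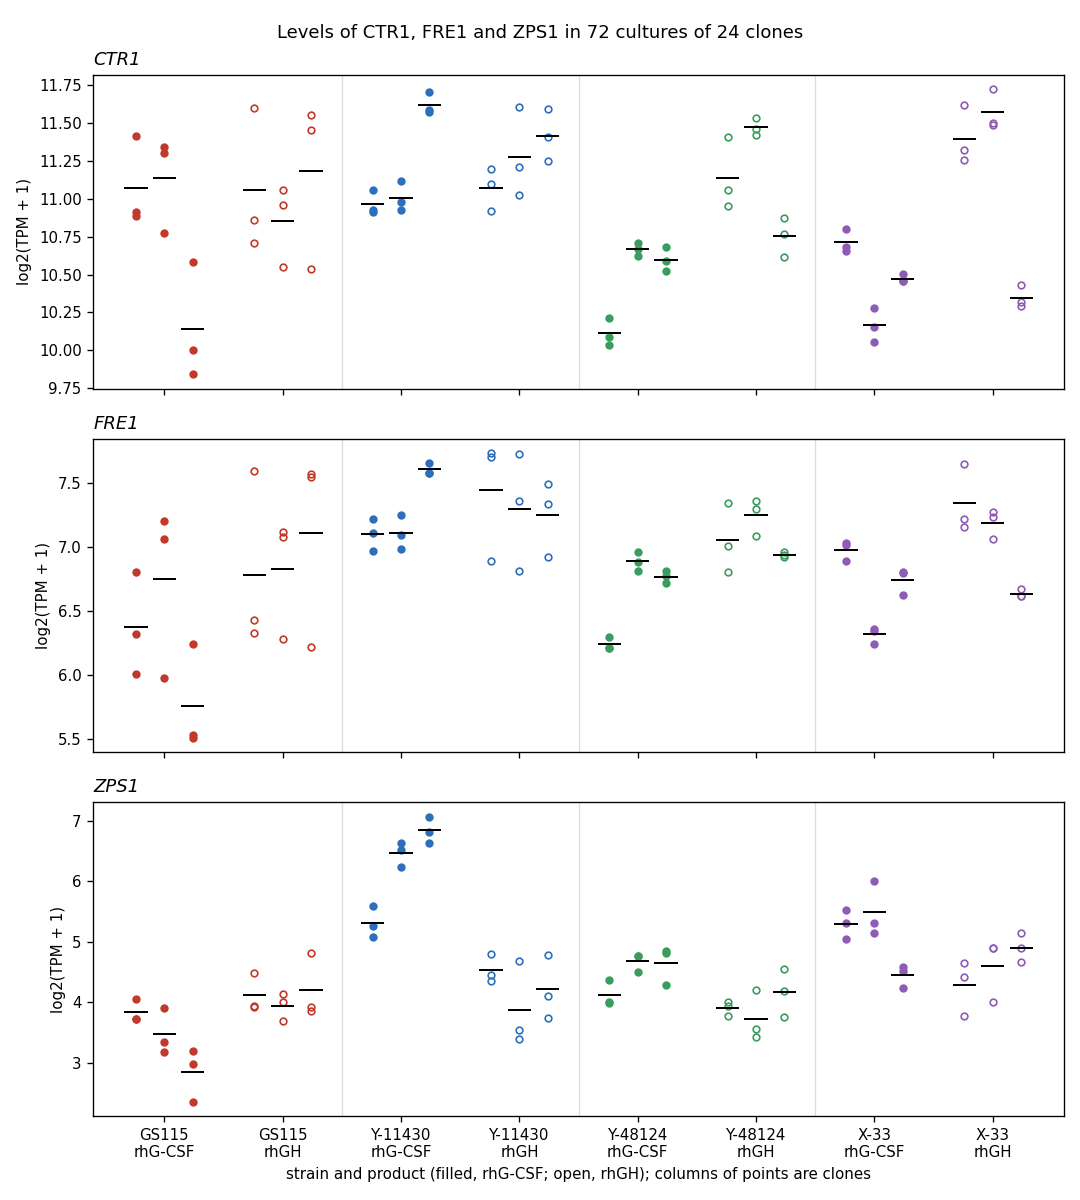
Level of each gene as log2(TPM + 1) on the vertical axes, for 8 groups of 9 cultures, with points for cultures, columns of points for the 3 clones of a group, and black bars for clone means. ZPS1 in Y-11430 rhG-CSF lies at 5.08 to 7.07, above all cultures of Y-11430 rhGH, while CTR1 and FRE1 overlap between most groups.

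Ranked by group mean, CTR1 ran from 11.25 in Y-11430 rhGH to 10.45 in X-33 rhG-CSF and FRE1 from 7.33 in Y-11430 rhGH to 6.30 in GS115 rhG-CSF. For both genes, none of the 7 pairs of neighbours in that order differed by more than the pooled SD of their clones. ZPS1 was ordered Y-11430 rhG-CSF (6.21 ± 0.80), X-33 rhG-CSF (5.08 ± 0.56), X-33 rhGH (4.60 ± 0.31), Y-48124 rhG-CSF (4.48 ± 0.32), Y-11430 rhGH (4.21 ± 0.33), GS115 rhGH (4.08 ± 0.13), Y-48124 rhGH (3.93 ± 0.22), and GS115 rhG-CSF (3.38 ± 0.50; mean ± SD, n = 3 clones each). Only 3 of its 7 neighbour pairs differed by more than their pooled SD, the first, the second, and the last of the order, and the clone ranges of all 7 pairs overlapped.

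The genes varied at different levels of the design. For ZPS1, the SD was 0.36 between cultures of a clone, 0.44 between clones of a group, and 0.85 between group means, the last larger than for 87.1% of genes. For CTR1, the corresponding SDs were 0.23, 0.39, and 0.32, and for FRE1 0.35, 0.31, and 0.35. The spread between cultures of a clone was larger in GS115 than in the other strains for CTR1 and FRE1: for FRE1 it was 0.59 in GS115, against 0.31 in Y-11430 and 0.13 in both Y-48124 and X-33. For CTR1 it was 0.40 in GS115 and 0.11 to 0.16 in the others. For ZPS1 it was 0.37 in GS115 and 0.29 to 0.41 in the others.

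The first comparison asked whether the genes named by the glycerol cultures without transgenes also differed between GS115 and the other 3 strains in these methanol-grown producers. FRE1 was 1.59-fold lower and ZPS1 2.84-fold lower in GS115, whereas CTR1 did not pass the test. The log2 fold change was -0.67 (standard error 0.16) for FRE1, with an adjusted p of 6.9e-04 by edgeR's quasi-likelihood test on counts summed by clone. For ZPS1 it was -1.51 (SE 0.22), with an adjusted p of 3.09e-06, and for CTR1 -0.33 (SE 0.19, 95% interval -0.73 to 0.06), with an adjusted p of 0.119. GS115 differed from the other strains at most genes: 71.7% of the 5043 genes tested were called at an adjusted p under 0.05, 38.4% as higher and 33.3% as lower. That 2 of the 3 genes were called is near this background and is not a result about the 3 genes as a set. The change of FRE1 was larger in size than that of 53.8% of genes, and the change of ZPS1 larger than that of 85.2%.

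On the log2(TPM + 1) scale, ZPS1 averaged 3.73 ± 0.50 in 6 GS115 clones and 4.75 ± 0.86 in 18 clones of the other strains, a difference of -1.02 (exact two-sided permutation test, p = 0.00256). FRE1 averaged 6.60 ± 0.47 in GS115 and 7.01 ± 0.37 in the others (exact permutation p = 0.0512), and CTR1 10.91 ± 0.39 in GS115 and 10.93 ± 0.48 in the others (exact permutation p = 0.905). TPM placed the median of all genes 0.38 higher in GS115, against 0.07 in the count fit. Relative to that median, the TPM differences were -0.40 for CTR1, -0.79 for FRE1, and -1.40 for ZPS1.

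The GS115 difference of ZPS1 was largest in rhG-CSF strains. There ZPS1 was 5.11-fold lower in GS115 (log2 fold change -2.35, SE 0.32, edgeR adjusted p = 3.4e-06; 60.2% of genes called). Its GS115 rhG-CSF clones averaged 3.83, 3.48, and 2.84, all below the 9 clones of the other strains, which averaged 4.12 to 6.84 (exact permutation p = 0.00909, the smallest that 3 against 9 clones allow). In rhGH strains, ZPS1 had a log2 fold change of -0.66 (SE 0.30, edgeR adjusted p = 0.0622; 61.7% of genes called), and its GS115 rhGH clones, at 3.95 to 4.20, lay within the range of the others, 3.73 to 4.90. The difference between these 2 effects was -1.70 (SE 0.42), with an unadjusted p of 5.09e-04, rank 12 of 5043, and an adjusted p of 0.214. No gene was called for that difference by edgeR (0 of 5043; 476 at an unadjusted p under 0.05), while DESeq2 called 26 genes, limma-voom 22, and limma on log2(TPM + 1) 0. ZPS1 was called by DESeq2 (-1.66, adjusted p = 0.0346) and limma-voom (-1.77, adjusted p = 0.015). Of the strains set against GS115, Y-11430 had the largest product difference of ZPS1, 2.17, against 0.48 in Y-48124 and 0.51 in X-33. This contrast and that of the Y-11430 product difference below use the same 8 groups and are not separate results.

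FRE1 passed the count test as lower in GS115 with either product, while its clone means overlapped between GS115 and the other strains in both. Its log2 fold change was -0.73 (SE 0.22, edgeR adjusted p = 0.00744) in rhG-CSF strains and -0.60 (SE 0.22, edgeR adjusted p = 0.0226) in rhGH strains. The rhG-CSF value became -0.54, with an adjusted p of 0.063, without GS115 rhG-CSF clone 14, the clone with the lowest FRE1. The rhGH value became -0.52, with an adjusted p of 0.0514, without Y-11430 rhGH 22A, 8A, and 8C. It became -0.56 (adjusted p = 0.083) without GS115 rhGH clone 12, -0.52 (0.106) without GS115 rhGH clone 13. On the log2(TPM + 1) scale it was -0.25 (0.282), where the median of all genes was 0.50 higher in GS115, and -0.75 relative to that median. Clone means of FRE1 averaged 6.30 ± 0.50 in GS115 and 6.86 ± 0.42 in the others with rhG-CSF (exact permutation p = 0.1), and 6.91 ± 0.18 and 7.16 ± 0.25 in the same order with rhGH (exact permutation p = 0.173). CTR1 had values of -0.11 (SE 0.26, edgeR adjusted p = 0.742) in rhG-CSF strains and -0.56 (SE 0.27, edgeR adjusted p = 0.0805) in rhGH strains. In rhG-CSF strains CTR1 was 0.08 on the log2(TPM + 1) scale, where the median of all genes was 0.24 higher in GS115, and -0.16 relative to that median.

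**Figure D2:**
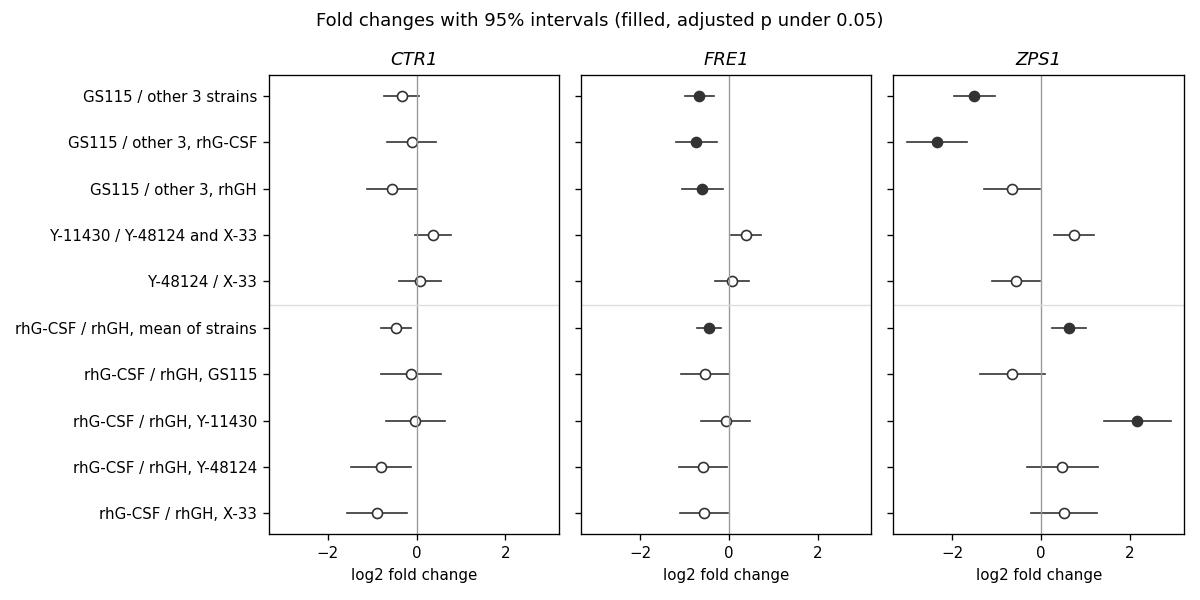
Log2 fold changes of CTR1, FRE1, and ZPS1 from the count fit (horizontal axes) with 95% intervals for 5 strain contrasts above the line and 5 product contrasts under it, filled where the edgeR adjusted p was under 0.05. The point farthest to the left is ZPS1 in GS115 against the other 3 strains with rhG-CSF, at -2.35, and the point farthest to the right is ZPS1 in Y-11430 with rhG-CSF against rhGH, at 2.17.

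Set against each strain, with the same GS115 clones in each comparison, GS115 had its largest differences from Y-11430. ZPS1 had a log2 fold change of -1.995 (SE 0.26, edgeR adjusted p = 1.06e-06) against Y-11430, -0.98 (SE 0.26, edgeR adjusted p = 0.0025) against Y-48124, and -1.55 (SE 0.26, edgeR adjusted p = 2.02e-05) against X-33. FRE1 had -0.93 against Y-11430, -0.57 against Y-48124, and -0.51 against X-33, with edgeR adjusted p of 2.21e-04, 0.00983, and 0.0206. CTR1 passed the test only against Y-11430, at -0.57 (SE 0.23, edgeR adjusted p = 0.0345), and had -0.25 against Y-48124 and -0.18 against X-33. The genes called were 60.5% against Y-11430, 67.3% against Y-48124, and 66.5% against X-33. The CTR1 call was lost when any of 6 single clones was left out (GS115 rhG-CSF 14, GS115 rhGH 12 and 13, Y-11430 rhG-CSF 16, Y-11430 rhGH 22 and 25), with values of -0.58 to -0.45 and adjusted p of 0.0518 to 0.0839. The FRE1 call against X-33 was lost without GS115 rhG-CSF 14, X-33 rhG-CSF 12, or X-33 rhGH 12, with values of -0.44 to -0.41 and adjusted p of 0.055 to 0.0644.

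The 3 strains other than GS115 differed less. When Y-11430 was compared with Y-48124 and X-33 together, 5.14% of genes were called and none of the 3 was. ZPS1 missed the threshold narrowly, with a log2 fold change of 0.73 (SE 0.22) and an edgeR adjusted p of 0.0502. It passed with DESeq2 (adjusted p = 0.0297), when 12A of X-33 rhGH was left out (0.0435), without GS115 rhG-CSF 14A (0.0366), and without Y-11430 rhGH 22A, 8A, and 8C (0.0414). It did not pass with limma on log2(TPM + 1) (adjusted p = 0.0567), and the exact permutation test on clone means gave p = 0.129. With single clones left out, ZPS1 passed in 4 of 24 fits, with edgeR adjusted p of 0.00525 to 0.193. Its Y-11430 clones lay at 5.31, 6.47, and 6.84 with rhG-CSF but at 3.87, 4.21, and 4.54 with rhGH, and the rhGH clones of Y-48124 and X-33 lay at 3.73 to 4.90. FRE1 had 0.39 (SE 0.16, edgeR adjusted p = 0.151) and CTR1 0.36 (SE 0.19, edgeR adjusted p = 0.275). For FRE1, the exact permutation test on clone means gave p = 0.00593 (0.0602 for CTR1), with FRE1 at 7.30 ± 0.20 in 6 Y-11430 clones and 6.86 ± 0.34 in 12 clones of Y-48124 and X-33. Y-11430 rhGH clones 22 and 8, at 7.30 and 7.44, include 22A, 8A, and 8C, and this permutation test was not run without these libraries.

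When Y-48124 was set against X-33, CTR1 and FRE1 each had a log2 fold change of 0.07, with 95% intervals of -0.40 to 0.54 for CTR1 and -0.32 to 0.45 for FRE1. ZPS1 had -0.57, with an interval of -1.11 to -0.02 and an edgeR adjusted p of 0.998. No gene was called by edgeR (0 of 5043; 145 at an unadjusted p under 0.05), and DESeq2, limma, and limma-voom also called 0.

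The next comparison was between the products. ZPS1 was 4.49-fold higher with rhG-CSF than with rhGH in Y-11430, the largest product difference of the 3 genes in any strain. The counts of ZPS1 in Y-11430 rhG-CSF were 43, 51, and 37 in clone 12, 66, 62, and 144 in clone 13, and 205, 199, and 180 in clone 16. In Y-11430 rhGH they were 16, 9, and 19 in clone 22, 11, 54, and 8 in clone 25, and 20, 21, and 13 in clone 8. As clone means of log2(TPM + 1), the rhG-CSF clones lay at 5.31 to 6.84 and the rhGH clones at 3.87 to 4.54, without overlap (exact permutation p = 0.1, the smallest that 3 against 3 clones allow). The log2 fold change was 2.17 (SE 0.36, edgeR adjusted p = 0.00137; 10.9% of genes called). Without clone 16, which had the highest ZPS1, it was 1.82 (adjusted p = 0.0161). CTR1 and FRE1 had log2 fold changes of -0.03 and -0.07 in Y-11430.

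In the other strains the product contrast of the 3 genes did not pass the test. ZPS1 had -0.65 (SE 0.36) among GS115 clones, 0.48 (SE 0.38) among Y-48124 clones, and 0.51 (SE 0.36) among X-33 clones. Its difference in Y-11430 minus that in the other 3 strains was 2.05 (SE 0.41, edgeR adjusted p = 0.0287; 0.615% of genes called), and this call was lost when any of 3 Y-11430 clones was left out, rhG-CSF 16 (1.71, adjusted p = 0.1), rhGH 22 (1.87, 0.132), or rhGH 8 (2.13, 0.0999). CTR1 had -0.12 in GS115, -0.80 in Y-48124, and -0.89 for X-33, and FRE1 -0.54 in GS115, -0.59 in Y-48124, and -0.56 for X-33. In GS115, all 3 rhG-CSF clones were lower than all 3 rhGH clones for FRE1, at 5.76 to 6.75 against 6.78 to 7.11, and for ZPS1, at 2.84 to 3.83 against 3.95 to 4.20, the opposite order to ZPS1 in Y-11430. In Y-48124, all 3 rhG-CSF clones were lower than all 3 rhGH clones for CTR1, at 10.11 to 10.67 against 10.75 to 11.47, and for FRE1, at 6.24 to 6.89 against 6.94 to 7.25. Each of these separations had an exact permutation p of 0.1, the smallest that 3 against 3 clones allow. How many of all genes separate in this way was not counted, so they are not a result about these genes. In X-33, the CTR1 clones overlapped because rhGH clone 14, at 10.35, lay below rhG-CSF clones 12 and 16, at 10.71 and 10.47. edgeR called 0 of 5043 genes in GS115 and in Y-48124 (184 and 374 at an unadjusted p under 0.05) and 8 genes (0.159%) in X-33. DESeq2 called 0 in GS115, 18 in Y-48124, and 55 for X-33, limma on log2(TPM + 1) called 0, 0, and 9, and limma-voom called 1, 10, and 18, in the same order of strains.

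Averaged over the 4 strains, the genes moved in opposite directions. FRE1 was lower with rhG-CSF (log2 fold change -0.44, SE 0.13, edgeR adjusted p = 0.0369) and ZPS1 higher (0.63, SE 0.18, edgeR adjusted p = 0.0334), with 10.1% of genes called. CTR1 had -0.46 (SE 0.16, edgeR adjusted p = 0.0699). Leaving out single clones lost the FRE1 call in 12 of 24 cases (GS115 rhG-CSF 12, GS115 rhGH 14, Y-11430 rhGH 8 and 22, Y-48124 rhG-CSF 13 and 16, Y-48124 rhGH 11 and 12, X-33 rhG-CSF 13 and 16, X-33 rhGH 12 and 13), with values of -0.45 to -0.39 and adjusted p of 0.0512 to 0.0744. It lost the ZPS1 call in 13 of 24 (GS115 rhG-CSF 12, GS115 rhGH 13 and 14, Y-11430 rhG-CSF 16, Y-11430 rhGH 22, Y-48124 rhG-CSF 14 and 16, Y-48124 rhGH 11 and 12, X-33 rhG-CSF 12 and 13, X-33 rhGH 12 and 13), with values of 0.54 to 0.62 and adjusted p of 0.0517 to 0.0647. FRE1 also lost its call without Y-11430 rhGH 22A, 8A, and 8C, at -0.38 (adjusted p = 0.0772). The ZPS1 average joins values of opposite sign, -0.65 in GS115 and 2.17 in Y-11430. On clone means, CTR1 averaged 10.72 ± 0.46 with rhG-CSF and 11.13 ± 0.35 with rhGH (permutation test, n = 12 clones each, p = 0.0249), FRE1 6.72 ± 0.49 and 7.09 ± 0.25 in the same order (permutation p = 0.0262), and ZPS1 4.79 ± 1.17 and 4.20 ± 0.34 (permutation p = 0.114). Clones were shuffled without regard to strain in these permutation tests.

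CTR1 and FRE1 varied together, and ZPS1 did not follow them over all 24 clones. Over the 24 clones, CTR1 and FRE1 had a Pearson's r of 0.82 and a Spearman's rho of 0.80 (permutation p = 1e-05 for both, the smallest that 100000 resamples give; 3e-05 after Benjamini-Hochberg adjustment over the 3 pairs). Pearson's r was 0.74 without the 2 clones farthest from the median of CTR1. After subtracting group means it was 0.88 (permutation p = 2.9e-04), so the relation was also present within groups. Within strains, r over 6 clones each was 0.86 in GS115, 0.72 in Y-11430, 0.95 in Y-48124, and 0.93 for X-33. The rho values were 0.49, 0.77, 1.0, and 0.94 in the same order, so the relation was weaker by rank in GS115. There rhG-CSF clone 14 lay lowest in both genes, while the other clones lay at 10.86 to 11.18 for CTR1. The clones with the lowest CTR1, Y-48124 rhG-CSF 13 (10.11), GS115 rhG-CSF 14 (10.14), and X-33 rhG-CSF 13 (10.16), were also the lowest in FRE1, at 6.24, 5.76, and 6.32. Both levels come from the same libraries and are scaled by the same totals, which the points share.

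Among all 5042 other genes tested, FRE1 had the highest r with CTR1 over the clones, and CTR1 the highest with FRE1. ZPS1 ranked 1252 for CTR1 (r = 0.10, rho = -0.13, permutation p = 0.65) and 267 for FRE1 (r = 0.40, rho = 0.21, permutation p = 0.053). The FRE1 and ZPS1 value fell to 0.20 without the 2 clones farthest from the median, and so rested on them. The strains differed in sign. For CTR1 and ZPS1, r over 6 clones was 0.82 in GS115 (rho 0.49), 0.12 in Y-11430, -0.57 in Y-48124, and -0.62 in X-33. For FRE1 and ZPS1 it was 0.87 (rho 0.89), 0.16, -0.33, and -0.68 in the same order. These values within strains were not tested, and each joins clones of both products, so differences between the products enter them. With group means subtracted, r over the 24 clones was 0.20 for CTR1 and ZPS1 (permutation p = 0.46). For FRE1 and ZPS1 it was then 0.26 (permutation p = 0.35). The gene most like ZPS1 was GQ67_02712, with r = 0.87, which is also on the loadings list and has no name in the sources used here.

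**Figure D3:**
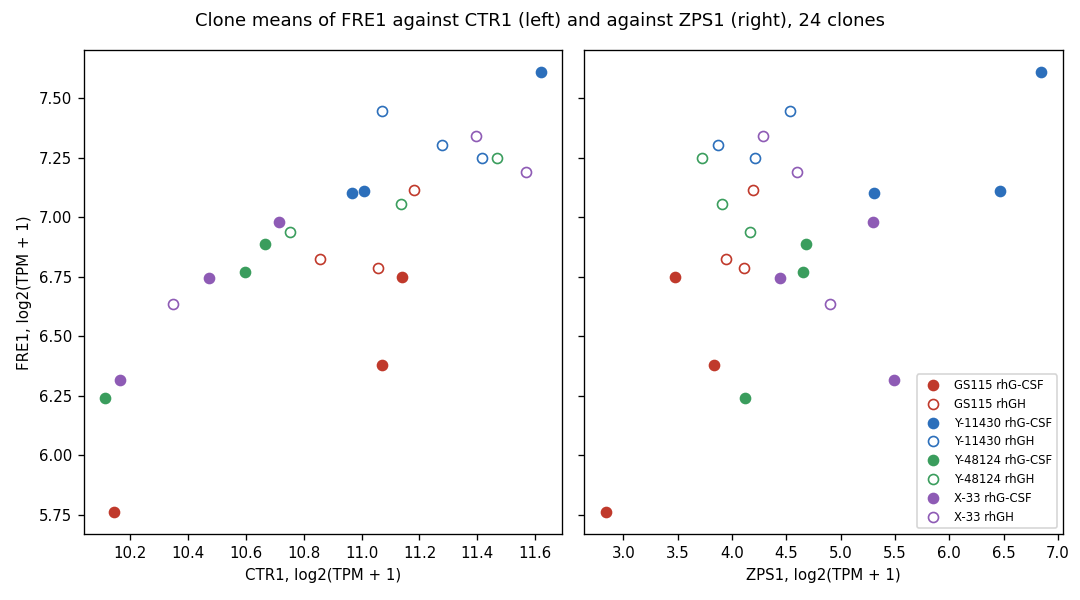
Clone means of FRE1 on the vertical axis, as log2(TPM + 1), against CTR1 (left) and ZPS1 (right) for 24 clones, with colours for strains, filled points for rhG-CSF, and open points for rhGH. FRE1 follows CTR1 with r = 0.82, with the GS115 rhG-CSF clones lying under the others, while FRE1 and ZPS1 scatter with r = 0.40.

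Single cultures gave a like relation in 3 of the 4 strains. After subtracting clone means, CTR1 and FRE1 of the 72 cultures had r = 0.78, and within strains r over 18 cultures was 0.97 in GS115, -0.04 in Y-11430, 0.75 in Y-48124, and 0.80 for X-33. The Y-11430 cultures include 22A, 8A, and 8C of the rhGH group, and without these 3 libraries r was 0.92 over the other 15 Y-11430 cultures. Over the 3 strains other than GS115, r was 0.27 with these libraries (54 cultures) and 0.82 without them (51 cultures). These libraries had the lowest ratios of CTR1 to FRE1 counts of all and were set aside after the data had been seen. The rise in r without them follows largely from that choice and is not separate support for the relation. In GS115, where cultures of a clone spread widest, the cultures low in CTR1 were low in FRE1, as in rhGH clone 14, with 11.55, 11.45, and 10.54 for CTR1 and 7.57, 7.55, and 6.22 for FRE1. CTR1 and ZPS1 had r = -0.09 and FRE1 and ZPS1 r = -0.14 over the 72 cultures.

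The balance of CTR1 to FRE1 was compared as the ratio of their counts, which does not depend on the library total. GS115 had 3.70 CTR1 counts per FRE1 count, against 2.82 in Y-11430, 2.85 in Y-48124, and 2.80 for X-33 (geometric means of 6 clones each). The log2 ratio was 1.89 ± 0.25 in GS115 and 1.50 ± 0.20 in 18 clones of the other strains (exact permutation p = 0.00175). In rhG-CSF strains it was 2.07 ± 0.18 in GS115 and 1.42 ± 0.09 in the others (exact permutation p = 0.00909, the smallest possible), with the 9 GS115 cultures at 3.27 to 5.52 CTR1 counts per FRE1 count and the other 27 at 2.33 to 3.23. In rhGH strains it was 1.70 ± 0.13 in GS115 and 1.58 ± 0.25 in the others (exact permutation p = 0.455). These 4 tests, including the one below, were added after the levels had been seen. Ratios of other gene pairs were not compared, and 71.7% of single genes were called between GS115 and the other strains. Whether this ratio differs more than that of other pairs was therefore not tested.

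Y-11430 rhGH 22A, 8A, and 8C had the lowest ratios of all libraries, 1.72 to 1.90, against 3.13 to 3.92 in the other 6 libraries of the group and 2.33 to 5.52 in the other 69. FRE1 was high in the 3 libraries, at 7.73, 7.74, and 7.71, the highest of all 72, while CTR1 was at 11.02, 11.09, and 10.92, within the range of its group. Without them, the log2 ratio of the strains other than GS115 was 1.56 ± 0.22, and the difference from GS115 was 0.33 (exact permutation p = 0.00793).

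**Figure D4:**
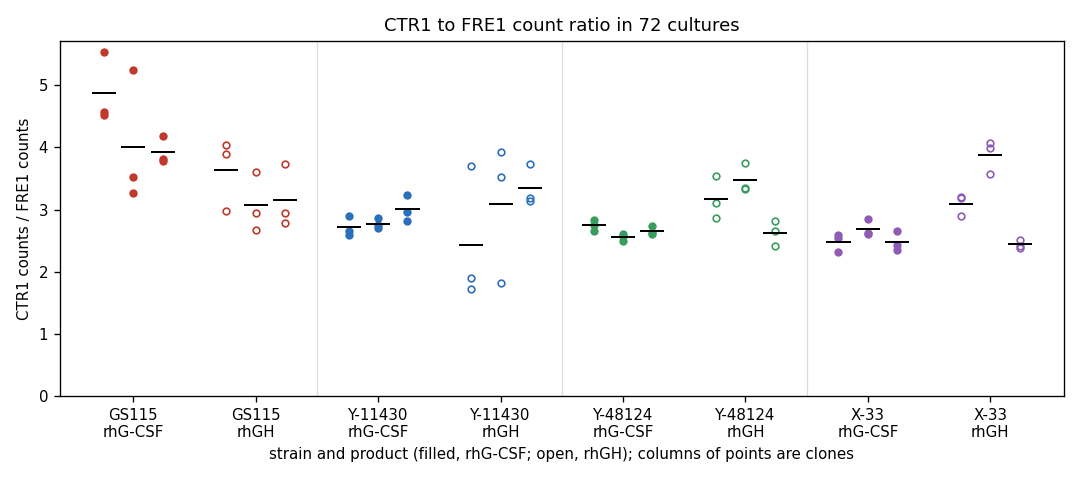
CTR1 counts per FRE1 count (vertical axis, from 0) in the cultures of 8 groups, with columns of points for clones and bars for clone means. GS115 rhG-CSF cultures lie at 3.27 to 5.52, above all other rhG-CSF cultures, and 3 Y-11430 rhGH cultures lie lowest, at 1.72 to 1.90.

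The transgene level of a clone was compared with each gene over the 12 clones of a product. With rhG-CSF, r was 0.56 for CTR1, 0.49 for FRE1, and 0.55 for ZPS1, with rho of 0.51, 0.31, and 0.38. With rhGH, r was 0.28 for CTR1, 0.25 for FRE1, and -0.27 for ZPS1, with rho of 0.11, 0.22, and -0.10. None of the 6 passed the test, with permutation p of 0.06 to 0.43 for r (0.19 to 0.43 after adjustment over the 6) and 0.093 to 0.75 for rho. Without the 2 clones farthest from the median transgene level, r was 0.36, 0.40, and 0.40 with rhG-CSF and -0.06, -0.05, and -0.16 with rhGH. The 12 clones of a product join 4 strains. After subtracting group means, r was 0.29, 0.19, and 0.35 with rhG-CSF and 0.59, 0.46, and -0.37 with rhGH, in the same order of genes. These last values were not tested. Y-11430 rhG-CSF clone 16 had both the highest transgene level, 16.09, and the highest ZPS1, 6.84, and the part of the transgene in the ZPS1 level was not tested further.

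The other 17 genes of the loadings list set the 3 genes in context. The list was drawn up for its difference between GS115 and other strains, though in other cultures, and its direction here is not independent of that choice. Of the 10 genes with a negative loading, CTR1, FRE1, and ZPS1 included, 7 were called as lower in GS115, 0 as higher, and 3 were not called, where 71.7% of all genes were called and 33.3% as lower. The share called in either direction is therefore that of the background. The 7 other than CTR1, FRE1, and ZPS1 had a median log2 fold change of -1.97, against 0.07 for all genes tested, with 5 called as lower. PDR12, which encodes a transporter that exports weak acids in *S. cerevisiae*, was 25.3-fold lower in GS115 (log2 fold change -4.66, SE 0.25, edgeR adjusted p = 6.39e-13), and GQ67_02712, the gene most like ZPS1, had -2.20 (SE 0.29, edgeR adjusted p = 7.81e-07). The changes of CTR1, FRE1, and ZPS1 were each smaller in size than the median of those 7 genes.

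Of the 10 genes with a positive loading, 5 were called as higher in GS115, 2 as lower, and 3 were not called, with a median of 0.73. Of all genes, 38.4% were called as higher and 33.3% as lower, so here too the share called is near the background. NIT1, which encodes a nitrilase, was 35.8-fold higher (log2 fold change 5.16, SE 0.18, edgeR adjusted p = 1.18e-15). YDL218W, named after a *S. cerevisiae* gene of unknown function, was 2.17-fold higher (adjusted p = 4.99e-05). YFL040W, named after a putative transporter gene, had 0.65 (adjusted p = 0.081), and FLO11-BSC1, named after a flocculin, had -0.14 (adjusted p = 0.627). In the product contrast within Y-11430, GQ67_02712 was the only 1 of the other 17 genes of the list that passed the test, where 10.9% of all genes did, with 2.12 (SE 0.45, edgeR adjusted p = 0.00694), next to 2.17 for ZPS1.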

How the data were processed

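The authors quantified 3′ DGE reads with Salmon 0.9.1 against a set of single transcripts, 1 for each gene and lengthened at the 3′ end, to which the transgenes were added (bedtools 2.26.0 is also named in the submitters' processing notes). How molecular identifiers were handled is not given in the sources used here. Intervals of fold changes come from the fit over clones and include the variation between them. The deposited counts are raw, unscaled whole numbers. The authors also deposited log2 values, taken of TPM with 1 added. Columns that carry "WT" were matched to Y-11430 by clone number and culture letter.

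Counts were summed over the 3 cultures of a clone, since a clone is the independent transformant, and the 24 clones were fitted as 8 group means by the quasi-likelihood test of edgeR (version 4.0.16, run in R 4.3.3), TMM normalization, filterByExpr (5043 of 5120 genes kept, all 3 members among them), and Benjamini-Hochberg adjustment over all genes tested. The threshold was an adjusted p of 0.05. The study's methods name DESeq2 with shrinkage. DESeq2 (1.42.0, without shrinkage) and limma (3.58.1) were alternatives. Permutation tests and correlations used clone means of log2(TPM + 1) in SciPy 1.17.1 (pandas 2.3.3, NumPy 2.4.6, Matplotlib 3.10.9, Python 3.11.15). Permutation tests of differences of means shuffled all clones of a contrast freely. Tests between strains over both products did not keep clones within their product, and tests between products over the strains did not keep them within their strain. Cultures of a clone differed by more than counting error, with a chi-square per degree of freedom of 2.04 to 82.9 over 72 pairs, and none was merged. The genes named were CTR1, FRE1, ZPS1, the genes of the same loadings list that have a symbol, and the gene most like each member. Members and lists were chosen with earlier results of these data known. On simulated counts for the contrast of GS115 with the other 3 strains, 50 of 50 genes changed by a log2 fold change of -2, 48 of 50 by -1, 46 of 50 by 1, and 50 of 50 by 2 were called, with 7 of 4823 unchanged genes. Only 200 genes were changed there, evenly up and down, whereas 71.7% of genes were called in the data. The simulation therefore does not test the fit where most genes differ. The contrasts of GS115 with each strain and the Y-11430 product difference minus that of the other strains were added after the files had been seen, as was the fit without Y-11430 rhGH 22A, 8A, and 8C.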

Additional observations from a re-analysis of the deposited data

Results flagged for a closer look

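The library GS115 rhG-CSF 14A had a total of 33003281 counts, far from the other 8 libraries of its group, which had 1423848 to 5996828. Of 40 groups of values examined for a library far from the rest, this was the only 1, against 2 that chance gives at 1 in 20. Without this library, the log2 fold changes of the 3 genes moved by at most 0.17 and 2 of the 45 calls changed, both of ZPS1 (GS115 in rhGH strains, adjusted p = 0.048, and Y-11430 compared with Y-48124 and X-33, adjusted p = 0.0366).

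The product difference of ZPS1 was larger in Y-11430 than in the mean of the other 3 strains by 2.05 log2 units (SE 0.41, edgeR adjusted p = 0.0287). All 3 Y-11430 rhG-CSF clones lay above all 3 Y-11430 rhGH clones (exact permutation p = 0.1, the smallest that 3 against 3 clones allow). The call was lost without Y-11430 rhG-CSF clone 16 (1.71, adjusted p = 0.1), Y-11430 rhGH clone 22 (1.87, 0.132), or Y-11430 rhGH clone 8 (2.13, 0.0999). The highest transgene level of all rhG-CSF clones, 16.09, was that of Y-11430 clone 16, and its part in the difference was not tested.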

How the results depend on the processing

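GS115 against the other 3 strains kept the direction and the call of FRE1 and ZPS1 (both products) and of ZPS1 (rhG-CSF) in every alternative model fit across genes, while the exact permutation test of FRE1 on clone means gave p = 0.0512. On TPM values, CTR1 turned sign in rhG-CSF strains (0.082 with a pseudocount of 1 and 0.082 with 5), against X-33 (0.13 and 0.13) and against Y-48124 (0.12 and 0.12), FRE1 turned in Y-48124 against X-33 (-0.012 and -0.011). TPM shifted the median of all genes in these contrasts by 0.24, 0.37, 0.46, and -0.089, and relative to it the values with a pseudocount of 1 were -0.16, -0.24, -0.34, and 0.077, with the signs of the count fit. FRE1 lost its call in rhGH strains (-0.25 and -0.24) and between the products (-0.37 and -0.36). With 5, ZPS1 in Y-11430 compared with Y-48124 and X-33 was called (0.63), and 325 genes were called between the products, against 510.

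Taking the 72 cultures as replicates counts each clone 3 times and gave more calls. Values without and with the culture letter as a replicate block were -0.60 and -0.60 for CTR1 and -0.61 and -0.62 for ZPS1 in rhGH strains of GS115, -0.37 and -0.37 for CTR1 with both products, -0.44 and -0.44 for CTR1 between the products, and 0.35 and 0.35 for CTR1, 0.37 and 0.37 for FRE1, and 0.72 and 0.72 for ZPS1 in Y-11430 compared with Y-48124 and X-33, all then called. CTR1 between the products in Y-11430 turned to 0.0042 and 0.0069. Genes called were 1408 and 1403 in Y-11430 compared with Y-48124 and X-33, where the clone sums gave 259, DESeq2 399, and limma-voom 640, and 1616 and 1596 between the products. The letters only share a name: same-lettered cultures of different clones had a median correlation of 0.0027 over 828 pairs. DESeq2 also called CTR1 (-0.61) and ZPS1 (-0.71) in rhGH strains of GS115, CTR1 between the products (-0.46), and ZPS1 in Y-11430 (0.72). Limma-voom called CTR1 (-0.58) and ZPS1 (-0.72) in rhGH strains, CTR1 with both products (-0.35) and between the products (-0.40), and CTR1 (0.35) and ZPS1 (0.69) in Y-11430. ZPS1 in rhGH strains was also called with DESeq2's size factors (-0.71), with the clones of 1 product in the fit (-0.66), and without GS115 rhG-CSF 14A (-0.66). The cause was not tested.

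Without Y-11430 rhGH 22A, 8A, and 8C, FRE1 lost its call in rhGH strains (-0.52) and between the products (-0.38) and turned to 0.18 between the products in Y-11430, and ZPS1 in Y-11430 compared with Y-48124 and X-33 was called (0.76), as it was without GS115 rhG-CSF 14A (0.73) or the library labelled X-33 rhGH 12A (0.73). Without 22A, 8A, and 8C, the correlation of FRE1 and ZPS1 over clones was 0.44 (permutation p = 0.032, 0.048 after adjustment over the 3 pairs). It was 0.019 when the 2 clones farthest from the median were also left out, and its rho was 0.24 (permutation p = 0.25). Without X-33 rhGH 12A, r was 0.41 (permutation p = 0.049, 0.074 after adjustment).

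Leaving out each clone in turn gave the following ranges. For GS115 in rhG-CSF strains, CTR1 ran from -0.23 to 0.086 and FRE1 from -0.98 to -0.54. In rhGH strains, CTR1 ran from -0.67 to -0.45, FRE1 from -0.75 to -0.52, and ZPS1 from -0.74 to -0.58. With both products, CTR1 ran from -0.40 to -0.24, and the FRE1 difference between products from -0.38 to 0.061. In Y-11430 compared with Y-48124 and X-33, ZPS1 ran from 0.56 to 0.90 and genes called from 98 (without Y-11430 rhGH 8) to 501 (without Y-11430 rhG-CSF 13). In Y-48124 against X-33, CTR1 ran from -0.093 to 0.19 and FRE1 from -0.052 to 0.16. Between the products, CTR1 ran from -0.54 to -0.40, FRE1 from -0.51 to -0.39, ZPS1 from 0.54 to 0.70, and genes called from 297 (without X-33 rhG-CSF 12) to 747 (without Y-11430 rhG-CSF 13). Within GS115, CTR1 ran from -0.25 to 0.071, and within Y-11430, CTR1 from -0.28 to 0.12 and FRE1 from -0.28 to 0.048. Of all values under alternatives, 1620 kept their direction and side of the threshold, 54 lost the call, 62 gained one, 24 changed sign, and 19 counts of genes called moved by over 1.5 times. ZPS1, with a median of 28 counts per culture, is limited by depth, and an adjusted p near 0.05 should be read with its range over clones.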
